A study of Rattus norvegicus with 74 samples.

Results

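Mitochondrial biogenesis, the growth of the mitochondrial network of a cell, is steered by a small group of regulators, 10 of which were followed here in rat muscle and heart. They were Ppargc1a, Ppargc1b, Esrra, Esrrg, Ppara, Ppard, Nrf1, Tfam, Prkaa2 and Sirt1, chosen by symbol, and all 10 were found among the 30560 genes of the count tables. The animals were male wild-type Wistar Kyoto rats, 9 weeks old at sampling, and all drank water with 8% deuterium oxide. Trained rats (ExT) began at 5 weeks of age and ran on a motor-driven treadmill on 5 days of each of 4 weeks, up to 60 min at 20 m/min. Sedentary rats (Sed) spent as long on a stationary belt, and both arms were sampled 24 h after their final session. Whole inner red gastrocnemius, a hindlimb muscle (SM), and antibody-captured mitochondria of the same fresh muscle (MT), exposed to proteinase-K and RNase-A, each gave 15 libraries per arm from the same 30 rats. The wall of the left ventricle (LV) gave 7 libraries per arm, from 14 of these rats. SM was prepared from 50 ng of RNA and MT from 10 ng with a Zymo-Seq RiboFree kit, and LV from 100 ng with an Illumina TruSeq Ribo-Zero kit.

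Ppargc1a and Ppargc1b encode PGC-1 coactivators, which bind no DNA themselves and raise transcription through partner factors. Esrra and Esrrg encode estrogen-related receptors, and Ppara and Ppard encode peroxisome proliferator-activated receptors, nuclear receptors through which the coactivators act on genes of oxidative phosphorylation and fatty acid oxidation. Nrf1 encodes nuclear respiratory factor 1, which drives genes of the respiratory chain and Tfam, and Tfam is the packaging and transcription factor of mitochondrial DNA. Prkaa2 encodes a catalytic subunit of AMPK, the energy-sensing kinase, and Sirt1 a deacetylase, both of which act on PGC-1alpha. In skeletal muscle a single bout of exercise is known to raise Ppargc1a mRNA for a few hours, and repeated training raises mitochondrial content.

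RefSeq promoter windows (build GRCr8, 250 bases before to 50 after the start) were present for 9 of the 10 genes, in 12 windows. Those of Ppargc1a and Ppara are shown because these genes had the smallest training p-values in SM and varied together between rats. Motifs were searched on both strands, and none of the 3 overlapped another. The cyclic AMP response element TGACGTCA, in capitals in the Ppargc1a window (chr14:63634058-63634357, plus strand), is found in 1.83% of the 33469 windows of the genome. The nuclear respiratory factor 1 motif, GCGCA and GCGC with any base between them, in capitals in the Ppara window (chr7:118712357-118712656, plus strand), is found in 4.25% of them. The estrogen-related receptor motif AAGGTCA is found in 4.61% of all windows and in 0 of the 12. Each of the other motifs was found in 1 of the 12, so the windows shown are the only ones with a match.
Ppargc1a: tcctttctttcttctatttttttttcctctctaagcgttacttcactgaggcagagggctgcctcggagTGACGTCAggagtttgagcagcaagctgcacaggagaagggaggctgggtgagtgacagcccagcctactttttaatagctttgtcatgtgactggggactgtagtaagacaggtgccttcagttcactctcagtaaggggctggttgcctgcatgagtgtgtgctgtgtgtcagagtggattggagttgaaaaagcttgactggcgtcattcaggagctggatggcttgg
Ppara: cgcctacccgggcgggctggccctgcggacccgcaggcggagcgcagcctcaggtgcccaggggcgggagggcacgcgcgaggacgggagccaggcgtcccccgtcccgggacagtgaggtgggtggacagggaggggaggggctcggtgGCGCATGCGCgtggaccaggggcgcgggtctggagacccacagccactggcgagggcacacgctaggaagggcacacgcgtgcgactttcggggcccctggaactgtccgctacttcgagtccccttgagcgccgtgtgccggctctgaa

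Total counts were 19477976 to 39401323 per library in SM, 54645657 to 75758777 in LV and 530397 to 9988027 in MT. Genes of the mitochondrial genome took 22.1 to 35.9% of counts in SM, 39.9 to 50.7% in LV and 12.9 to 95.4% in MT. Levels of the regulators are therefore given as CPM, scaled to the nuclear-encoded counts of each library, in which the mitochondrial share plays no part. Levels of different genes are not compared, because transcript lengths were not used here. The tissue labels matched their markers: Myh6, the alpha myosin heavy chain of heart, was at 27234 to 38018 CPM in LV and 2.21 to 21.3 CPM in SM, and Acta1, skeletal alpha actin, was at 27133 to 39443 CPM in SM and 742 to 1677 CPM in LV. In MT, 1260 odorant and vomeronasal receptor genes, which muscle does not use, together held 13670 to 19790 CPM, against 7.66 to 15.8 CPM in SM.

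**Figure D1:**
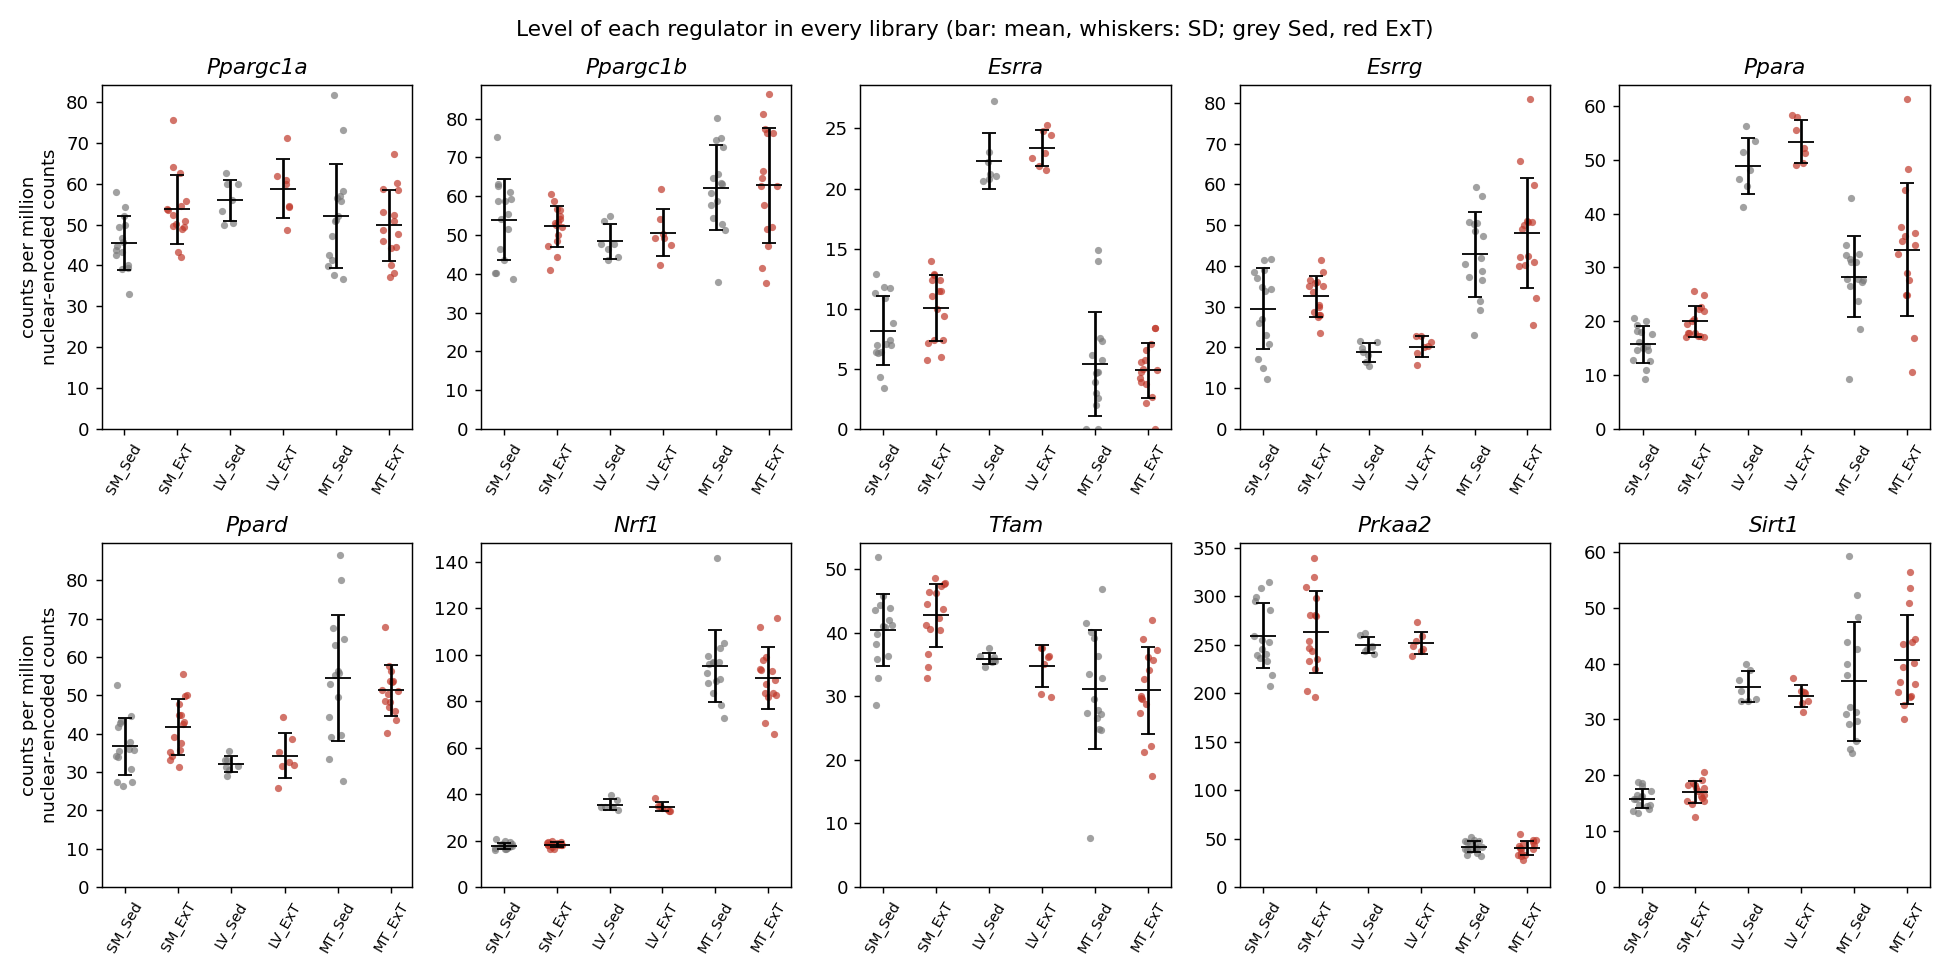
Level of each regulator in every library, in CPM of nuclear-encoded counts (linear axis from 0), for SM, LV and MT in Sed (grey) and ExT (red) rats; horizontal bars are means and whiskers SD. Within each tissue the Sed and ExT libraries overlap for all 10 genes, while LV stands above SM for Esrra, Ppara, Nrf1 and Sirt1 and below SM for most libraries of Esrrg.

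In whole muscle, none of the 10 regulators changed with training by edgeR's quasi-likelihood test at an adjusted p under 0.05. Over all genes 28 of 13570 were called, or 0.206%. Ppara and Ppargc1a were the 2 regulators with an unadjusted p under 0.05, and DESeq2 called 0 of the 10, against 134 of 13776 genes. Because these are bulk tissues, a smaller number of cells of a type and less RNA per cell cannot be told apart.

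Ppargc1a had a lowest, median and highest level of 33.0, 44.6 and 57.9 CPM in the 15 Sed libraries and of 42.0, 52.3 and 75.6 CPM in the 15 ExT libraries. The ExT median was higher, and the groups shared the stretch from 42 to 57.9 CPM. Training shifted the estimate by 0.19 on the log2 scale (SE 0.065, 95% interval 0.05 to 0.32; edgeR p = 0.0072, adjusted p = 0.198). Its relative Ppargc1b had levels of 38.6, 55.5 and 75.3 CPM in Sed and 41.0, 53.1 and 60.7 CPM in ExT, with a log2 fold change of -0.10 (interval -0.26 to 0.06).

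Among the nuclear receptors, Ppara showed 9.17, 15.5 and 20.5 CPM (lowest, median, highest) in Sed and 17.1, 19.5 and 25.7 CPM in ExT. No ExT library lay below 17.1 CPM, and the Sed libraries reached well into the ExT range. The fitted log2 fold change was 0.29 (SE 0.083, interval 0.13 to 0.46; edgeR p = 0.0011, adjusted p = 0.118). Leaving out Sed rat 30 brought Ppara past the threshold (0.33, adjusted p = 0.043), the sole library of the 30 for which any of the 10 genes crossed it. Esrra had a log2 fold change of 0.26 with a wide interval of -0.05 to 0.57, Ppard of 0.13 (-0.04 to 0.30) and Esrrg of 0.10 (-0.18 to 0.37).

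The transcription factors further down the cascade and the upstream enzymes had intervals that included 0. The log2 fold change was -0.02 for Nrf1 (interval -0.11 to 0.07), 0.02 for Tfam (-0.09 to 0.14), -0.04 for Prkaa2 (-0.21 to 0.13) and 0.05 for Sirt1 (-0.07 to 0.16). Nrf1 was also the steadiest of the 10 between rats, with a coefficient of variation of 6.62% over the 30 SM libraries, against 32.2% for Esrra and 25.5% for Esrrg.

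**Figure D2:**
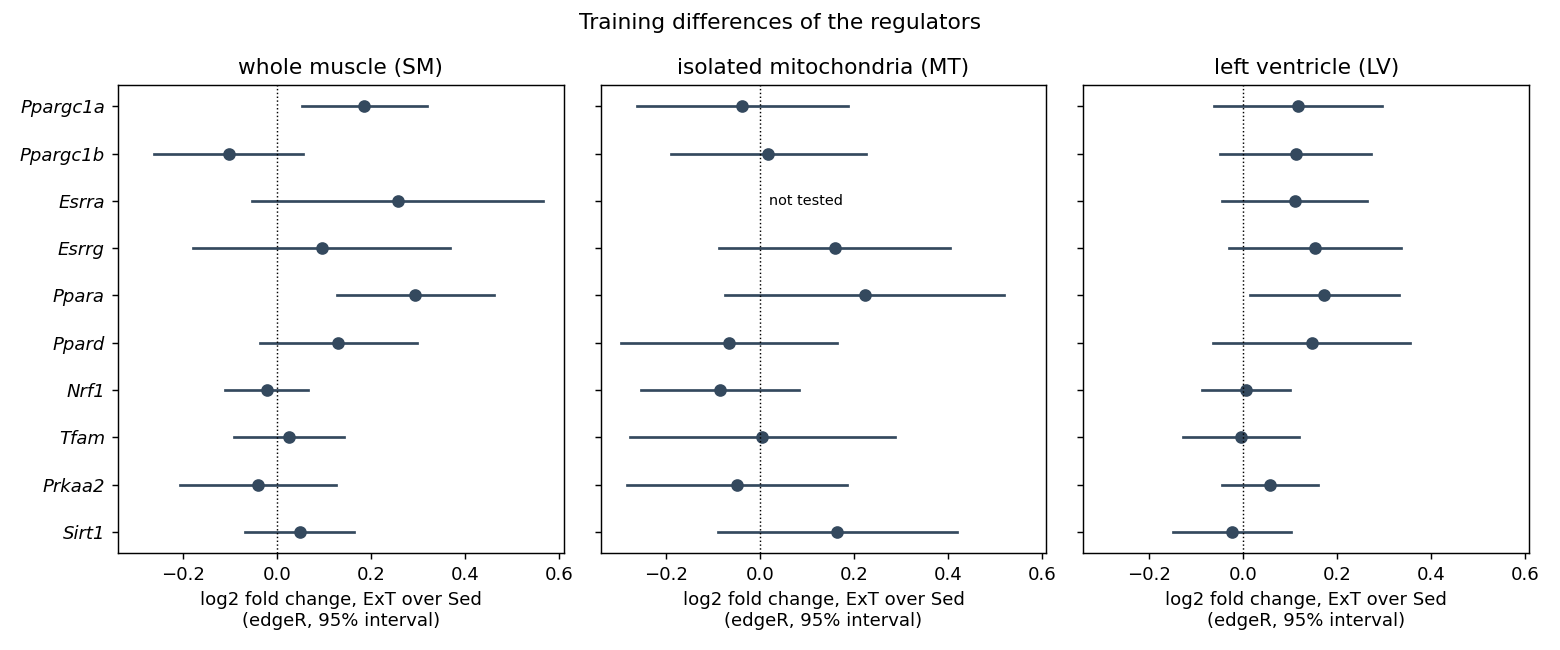
Log2 fold change of ExT over Sed (x axis) with its 95% interval from edgeR for each regulator in SM, MT and LV; the dotted line marks no difference and Esrra was not tested in MT. The intervals of Ppara in SM and LV and of Ppargc1a in SM lie to the right of 0, and none of these passed the adjustment over all genes.

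Other genes of the pathway were read from 3 lists. Of 20 measured PPAR target genes, such as those of fatty acid uptake and oxidation, 0 were called in SM, while 18 had a fold change above 0 and 8 had an unadjusted p under 0.05, all higher, with a median log2 fold change of 0.22. The 22 measured target genes of estrogen-related receptors and Nrf1 mostly encode respiratory chain and citric acid cycle proteins. Of these 22, 0 were called, 21 were above 0 and 8 had an unadjusted p under 0.05, all higher, with a median of 0.12. Of 49 other regulators, 0 were called and 24 were above 0, with a median of -0.01. Over all genes the median was -0.01 and 1860 of 13570 had an unadjusted p under 0.05.

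The 30 rats carry the numbers 2 to 16 (14 rats) and 17 to 32 (16 rats), and many genes differed between these ranges, so training was also read within each. In rats 2 to 16, 396 of 13423 genes were called (2.95%; 2.16% higher), and 2 of the 10 regulators rose: Ppargc1a and Ppara. Ppargc1a was at 33.0, 45.8 and 54.4 CPM in the 7 Sed libraries and at 50.7, 55.7 and 75.6 CPM in the 7 ExT libraries, so that the groups shared the stretch from 50.7 to 54.4 CPM (log2 fold change 0.32, SE 0.077, edgeR adjusted p = 0.0363). Ppara was at 9.17, 14.6 and 18.2 CPM in Sed and at 17.1, 19.5 and 25.7 CPM in ExT (0.48, SE 0.109, edgeR adjusted p = 0.0291). In rats 17 to 32, 1 of 13662 genes was called (0.00732%) and none of the 10 regulators, with a log2 fold change of 0.06 for Ppargc1a (interval -0.10 to 0.22) and 0.14 for Ppara (-0.07 to 0.36).

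The difference between the ranges was tested as an interaction. For Ppargc1a the training effect in rats 17 to 32 minus that in rats 2 to 16 was -0.25 (edgeR p = 0.030, adjusted p = 0.324) and for Ppara -0.33 (edgeR p = 0.044, adjusted p = 0.363). Prkaa2 went the other way, at 0.32 (edgeR p = 0.028, adjusted p = 0.318), from -0.22 in rats 2 to 16 to 0.10 in rats 17 to 32. No gene of 13570 passed this test (0.0%), and 1807 had an unadjusted p under 0.05, so the ranges were not shown to differ in the response of any regulator.

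Within rats 2 to 16, genes of the 3 lists that passed the test are named here after their values were seen. Perm1, a muscle regulator that acts with PGC-1 and the estrogen-related receptors, rose by 0.60 on the log2 scale (SE 0.123, edgeR adjusted p = 0.0181). Alas1, the first enzyme of heme synthesis, rose by 0.64, Acadvl, an acyl-CoA dehydrogenase of fatty acid oxidation, by 0.55, Uqcrc1, a complex III subunit, by 0.37, and Cs, citrate synthase, by 0.33. Rxrg, a retinoid X receptor and partner of the PPARs, was the one list gene that fell, with a log2 fold change of -0.40. All 22 estrogen-related receptor and Nrf1 targets had a fold change above 0 in rats 2 to 16 (median 0.27) and 9 of 22 in rats 17 to 32 (median -0.01). Of the PPAR targets, 18 of 20 were above 0 in rats 2 to 16 (median 0.43) and 15 of 20 in rats 17 to 32 (median 0.03).

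Levels of fibre-type markers were read in the same ranges. The summed level of 5 fast-fibre genes was 143786 CPM (SD 20398) in Sed and 115005 CPM (SD 12209) in ExT among rats 2 to 16, and 117128 CPM (SD 17301) and 116840 CPM (SD 17598) among rats 17 to 32. Over all 30 rats, 0 of these 5 were called and 2 had an unadjusted p under 0.05, both lower. The summed level of 6 slow-fibre genes (Myh7, Tnni1, Tnnt1, Tnnc1, Myl2 and Myl3) in rats 2 to 16 was 5184, 10970 and 32502 CPM in Sed (lowest, median, highest) and 14362, 23836 and 35535 CPM in ExT. In rats 17 to 32 it was 5460, 18457 and 31508 CPM in Sed and 5671, 16932 and 28977 CPM in ExT. None of the 6 was called in either range (smallest adjusted p 0.149 and 0.940), and none was at 0. The summed level of 3 Schwann cell genes over all SM libraries ranged from 6.37 to 142 CPM in Sed and from 23.9 to 192 CPM in ExT. That of 5 endothelial genes ranged from 333 to 727 CPM and from 487 to 793 CPM. That of 3 smooth-muscle genes averaged 248 CPM in Sed and 345 CPM in ExT. Of these genes 0 of 3, 4 of 5 and 3 of 3 had an unadjusted p under 0.05, all higher in ExT. Other lists fell: 0 of 4 fibroblast and 0 of 3 tested immune genes had a fold change above 0. Of the immune genes, 1 was lower at an unadjusted edgeR p = 0.0048. The 1 tested adipocyte gene was at -0.78, the 1 erythroid gene at 0.39, and 4 of 4 tested cardiac genes were above 0. None of these genes was called or at 0 in all libraries, and the part of fibre type or other cells in the differences of Ppargc1a and Ppara was not tested.

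**Figure D3:**
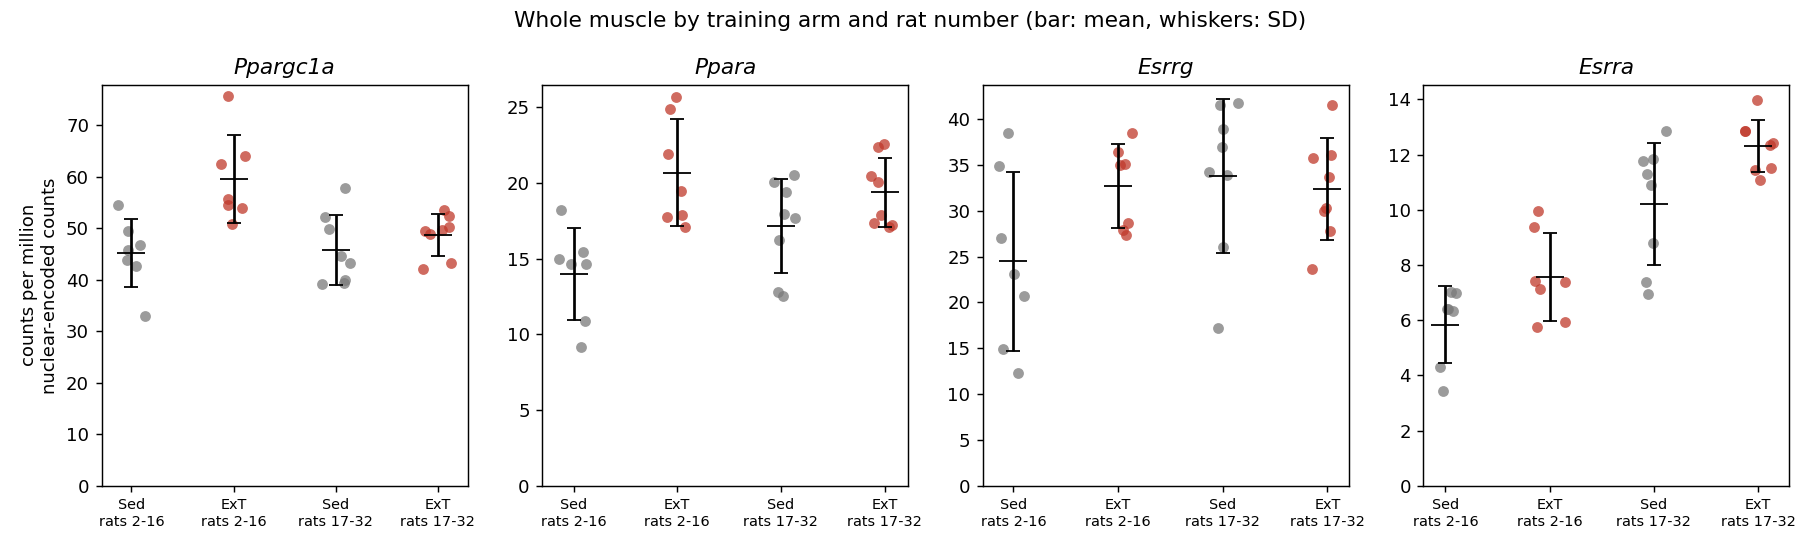
Levels in SM (CPM of nuclear-encoded counts) of Ppargc1a, Ppara, Esrrg and Esrra by training arm and rat number; points are rats, bars means and whiskers SD. Within rats 2 to 16 the trained mean is above the sedentary one for Ppargc1a and Ppara with some overlap of points, while Esrra is higher in rats 17 to 32, with no overlap in ExT and a slight one in Sed.

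Esrra differed far more between rat numbers than between training arms. In SM its lowest, median and highest level was 3.44, 6.39 and 7.02 CPM in Sed rats 2 to 16 and 6.95, 11.1 and 12.9 CPM in Sed rats 17 to 32. In ExT rats it was 5.75, 7.40 and 9.96 CPM in the first range and 11.1, 12.4 and 14 CPM in the second, with no overlap. With training in the model, rats 17 to 32 were higher by 0.72 on the log2 scale (SE 0.089, edgeR adjusted p = 3.01e-06), where 1762 of 13570 genes (13%) differed between the ranges. Ppargc1a was lower in rats 17 to 32 by a log2 difference of -0.17 (SE 0.058, edgeR adjusted p = 0.0431), and the other 8 regulators were not called. Its mean was 45.1 and 45.8 CPM in Sed rats of the first and second range and 59.6 and 48.7 CPM in ExT rats. In MT, where 1.67% of genes differed between the ranges, Ppard was lower in rats 17 to 32 (-0.39, SE 0.110, edgeR adjusted p = 0.0389) and the other 8 tested were not called. In LV, 2 libraries came from rats 2 to 16, and their Esrra levels of 23 and 24.5 CPM lay within the 20.7 to 27.3 CPM of the other 12. What the rat numbers stand for is not stated in the labels.

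In the left ventricle, 0 of the 10 regulators were called for training, as were 0 of 14488 genes (0.0%) by edgeR and 0 by DESeq2, with 855 genes at an unadjusted edgeR p under 0.05. Ppara was the one regulator among them, at 41.3, 48.2 and 56.4 CPM in Sed and 49.1, 52.2 and 58.4 CPM in ExT. The fitted change was 0.17 on the log2 scale (SE 0.075, interval 0.01 to 0.33; edgeR p = 0.035, adjusted p = 0.804). Ppargc1a was at 49.9, 56.0 and 62.6 CPM in Sed and 48.7, 59.9 and 71.2 CPM in ExT (0.12, interval -0.06 to 0.30). Ppargc1b and the other nuclear receptors lay between 0.11 and 0.15, and Nrf1, Tfam, Prkaa2 and Sirt1 between -0.02 and 0.06. None of the 3 related lists had a called gene in LV.

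In isolated mitochondria, 0 of the 9 regulators that could be tested were called, as were 0 of 19281 genes (0.0%) by edgeR and 0 by DESeq2, with 912 genes at an unadjusted p under 0.05 and no regulator among them. The counts behind these values were small: a median of 28 per library for Prkaa2, 64.5 for Nrf1 and 36.5 for Ppargc1a. Esrra had 0 to 8 counts per library and did not pass the filter on low counts. Where a library has no count, its limit of 3 counts corresponds to 2.84 to 6.97 CPM in MT. The largest fold change was that of Ppara, 0.22 with an interval of -0.07 to 0.52, and the intervals of all 9 included 0.

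The training effects of the tissues were compared directly. MT minus SM gave 0 called regulators of 10, where 5 of 27684 genes were called (0.0181%). Ppargc1a had the smallest p, with a difference of -0.26 (edgeR p = 0.059, adjusted p = 0.607). Esrra, with its few MT counts, had the largest difference, -0.30 with an interval of -1.07 to 0.47. DESeq2 called 0 of the 10. LV minus SM, over the 14 rats with both tissues, gave 0 called regulators and 0 of 15049 genes (0.0%; 687 at an unadjusted p under 0.05), with 3 genes and 0 regulators called by DESeq2. Esrrg had the one regulator p under 0.05, with a difference of 0.32 (SE 0.144, edgeR p = 0.031, adjusted p = 1.00).

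Between LV and SM the regulators were called in both directions, as were genes at large. In the 7 Sed rats with both tissues, all 10 were called between LV and SM, where 11301 of 14367 genes (78.7%; 40.0% higher and 38.6% lower) were called. Ppara, Esrra, Sirt1 and Nrf1 were higher in LV, and Esrrg, Ppargc1b, Tfam, Ppard, Prkaa2 and Ppargc1a lower. The 7 ExT rats gave the same directions for the 10, with 11363 of 14338 genes called (79.3%; 39.7% higher and 39.5% lower). Tissue and library kit cannot be told apart in these comparisons.

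Among the receptors, Ppara was at 12.8, 17.9 and 20.5 CPM in SM and at 41.3, 48.2 and 56.4 CPM in LV of the Sed rats, higher in LV in 7 of 7 rats (log2 fold change 0.92, SE 0.101, edgeR adjusted p = 7.37e-08). Esrra was at 6.95, 8.81 and 11.8 CPM in SM and at 20.7, 21.2 and 27.3 CPM in LV (0.72, SE 0.128, edgeR adjusted p = 4.33e-05). Esrrg ran the opposite way, at 26, 34.9 and 41.5 CPM in SM and 15.5, 18.8 and 21.6 CPM in LV (-1.47, SE 0.093, edgeR adjusted p = 2.20e-11). For these 3 genes, and for Nrf1 and Sirt1, the tissues did not overlap in CPM in either arm. The share of all genes without overlap was not computed. On nuclear-encoded totals, the scale of the CPM, the median log2 fold change of all genes was 0.60 in Sed and 0.50 in ExT rats. With TMM it was 0.04 and 0.01. The lack of overlap in CPM is therefore not read as a result about these genes. By edgeR, 78.7% (Sed) and 79.3% (ExT) of all genes were called.

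Nrf1 and Sirt1 were higher in LV in 7 of 7 rats of each arm. Nrf1 was at 16.5, 17.5 and 19.4 CPM in SM and 33.0, 34.5 and 39.7 CPM in LV of Sed rats (0.44, SE 0.060), and Sirt1 at 14.8, 17.2 and 18.8 CPM in SM and 33.4, 35.0 and 39.9 CPM in LV (0.53, SE 0.069). Both fold changes are with TMM and were called by edgeR with adjusted p = 1.50e-06 and 9.94e-07. On nuclear-encoded totals, the scale of the CPM, Nrf1 was at 1.00 and Sirt1 at 1.08. The ExT rats gave 0.99 for Ppara, 0.54 for Esrra, -1.16 for Esrrg, 0.44 for Nrf1 and 0.49 for Sirt1.

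The remaining 5 genes were lower in LV with TMM, and the call, or for Ppargc1a the direction, depended on the scaling for all of them but Tfam. TMM, the scaling of the test, put the median of all genes at 0.04 in Sed rats, and nuclear-encoded totals alone put it at 0.60. Ppargc1a was called lower with TMM (-0.24, SE 0.073, edgeR adjusted p = 0.00622) and called higher per nuclear-encoded count (0.32, edgeR adjusted p = 7.06e-04), being higher in LV in 7 of 7 Sed and 6 of 7 ExT rats on that scale. Prkaa2, at -0.64 with TMM, was at -0.08 on nuclear-encoded totals and not called there, and neither was Ppargc1b, at -0.78 and -0.22. Ppard (-0.75) was called on nuclear-encoded totals in ExT but not in Sed rats, and Tfam (-0.78) in both. Relative to the median of all genes, Esrrg and these 5 were lower in LV, and Ppara, Esrra, Sirt1 and Nrf1 higher, in both arms under each of TMM, RLE, library totals, nuclear-encoded totals, DESeq2, no filter and omission of mitochondrial-genome genes.

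**Figure D4:**
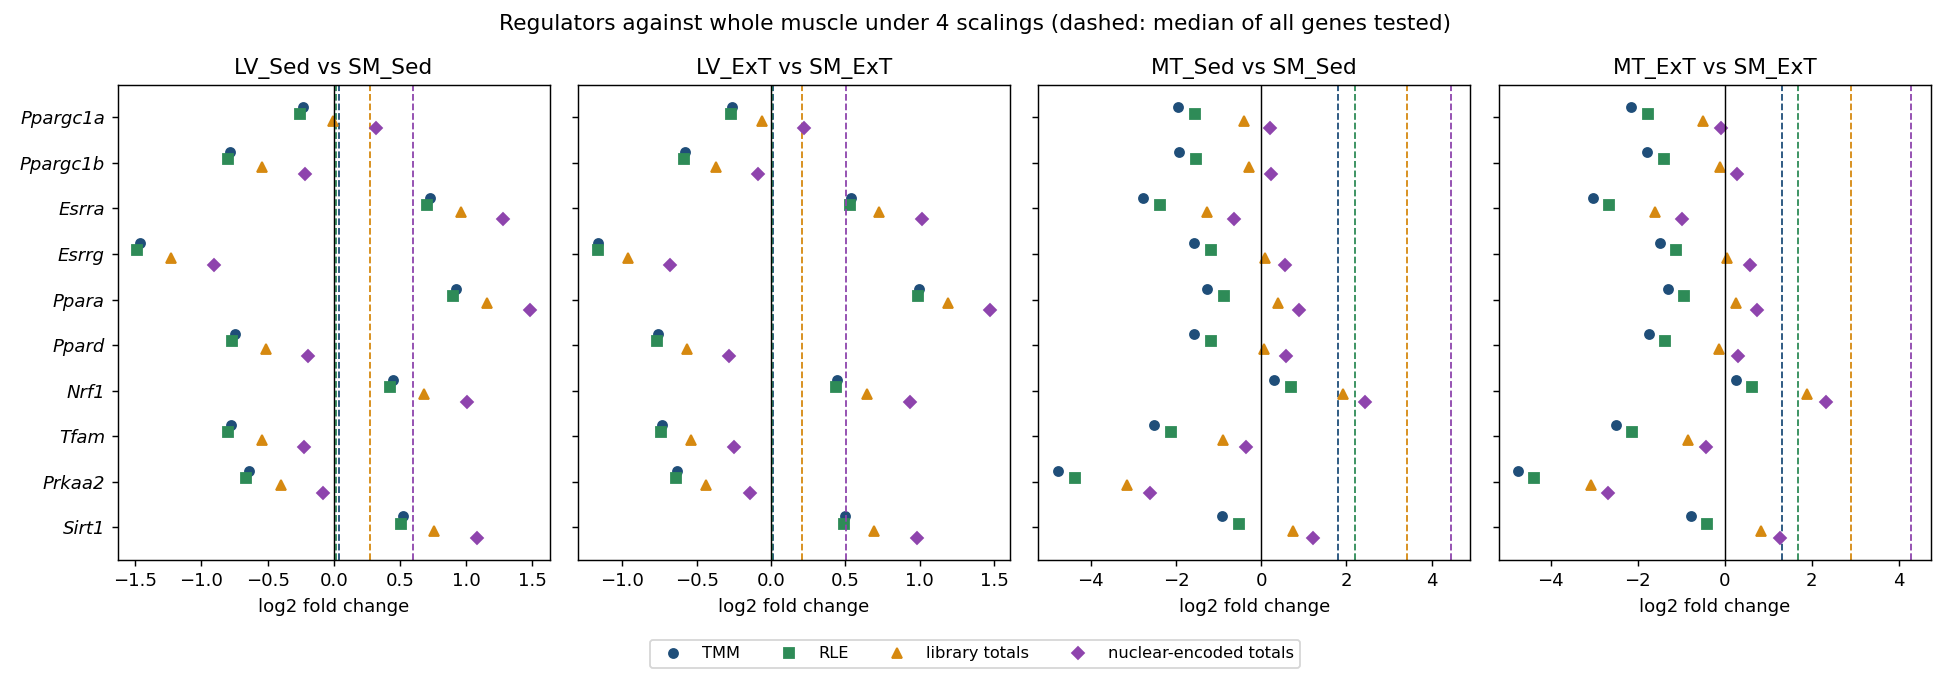
Log2 fold change (x axis) of LV and MT over SM in Sed and ExT rats for each regulator, under 4 scalings; dashed lines in the same colours mark the median of all genes tested. Points move together with the dashed line of their scaling: 4 regulators lie right of it and 6 left of it in LV, and all 10 lie left of it in MT.

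The related lists are read against 40.0% of all genes higher and 38.6% lower in LV of Sed rats. Of 21 measured PPAR targets, 16 were higher and 2 lower in LV than in SM of Sed rats (median log2 fold change 0.97, against 0.04 for all genes), and the counts were 16 and 2 in ExT rats. Lpl, lipoprotein lipase, had a difference of 2.52, and Pdk4, a kinase that inhibits pyruvate dehydrogenase, and Ucp3, an uncoupling protein, the largest negative ones (-2.14 and -2.11). Of 22 targets of estrogen-related receptors and Nrf1, 9 were higher and 7 lower in Sed and 9 and 5 in ExT rats, with Alas1 at 1.09, Uqcrc1 at 1.07, Cox6c, a cytochrome oxidase subunit, at -1.72 and Idh3a, a citric acid cycle dehydrogenase subunit, at -1.10 in Sed. Of 49 other regulators, 18 were higher and 24 lower in Sed and 17 and 23 in ExT. Esrrb, the remaining estrogen-related receptor, was at 16.5 CPM (SD 2.49, n = 7) in LV and 2.32 CPM (SD 1.03, n = 7) in SM of Sed rats (2.30, edgeR adjusted p = 1.01e-09). Camk2a, a calcium-dependent kinase, was at 10.7 CPM (SD 0.696) in LV and 154 CPM (SD 21.1) in SM.

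Libraries of isolated mitochondria held few counts of these nuclear-encoded regulators. Their nuclear-encoded counts were 430162 to 1055433 in all, against 13281629 to 26002757 in SM. The direction against whole muscle depended on the scaling for 6 of the regulators. With TMM, 9 of the 10 were lower and 1, Nrf1, higher in MT than in SM in both arms, where 94.8% (Sed; 61.7% higher, 33.1% lower) and 94.3% (ExT; 59.3% higher, 35.0% lower) of genes were called. The median log2 fold change of all genes was 1.81 in Sed and 1.31 in ExT rats, so that all 10 regulators, Nrf1 included, lay below the median. It was taken over 22842 (Sed) and 21312 (ExT) genes, against 13570 tested in SM alone. Genes that pass the filter through their MT counts enter it, so a place below it is no finding about the regulators. The isolation steps and the RNA input differed between MT and SM and cannot be told apart from the material itself.

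Prkaa2 was furthest from whole muscle. It had 2960 to 8043 counts per SM library and 18 to 50 per MT library, or 208, 253 and 314 CPM in SM and 32.4, 40.9 and 51.9 CPM in MT of Sed rats, lower in MT in 15 of 15 rats. With TMM the log2 difference was -4.77 (SE 0.091, edgeR adjusted p = 1.37e-40) in Sed and -4.75 in ExT rats, and -2.62 and -2.69 on nuclear-encoded totals. Tfam, whose protein resides in mitochondria, was at 28.7, 41.1 and 51.8 CPM in SM and 7.71, 29.6 and 46.8 CPM in MT of Sed rats (-2.51, SE 0.105, edgeR adjusted p = 6.14e-27), and Esrra at 3.44, 7.02 and 12.9 CPM and 0, 4.70 and 14.9 CPM (-2.77, SE 0.256, edgeR adjusted p = 6.74e-13). These 3 were called lower in both arms with TMM, RLE, library totals and nuclear-encoded totals. On nuclear-encoded totals, the scale of the CPM, Tfam was at -0.36 in Sed and -0.44 in ExT rats. Esrra was at -0.64 and -0.98 there, and its MT median of 4.70 CPM lay within the 2.84 to 6.97 CPM that 3 counts correspond to.

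Nrf1 was called higher with the same 4 scalings. It was at 16, 17.6 and 20.6 CPM in SM and 72.6, 95.8 and 142 CPM in MT of Sed rats, higher in 15 of 15 rats. The size followed the scaling, from 0.29 (SE 0.073, edgeR adjusted p = 2.44e-04) with TMM to 2.44 on nuclear-encoded totals. Without the filter on low counts it was 0.14 (adjusted p = 0.0685) in Sed and 0.09 (adjusted p = 0.217) in ExT rats and not called. Among Sed rats 2 to 16 alone it was also not called (0.14, adjusted p = 0.167), where 91.8% of genes were.

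The other 6 regulators were lower with TMM, by log2 fold changes of -0.92 (Sirt1) to -1.94 (Ppargc1a) in Sed and -0.78 (Sirt1) to -2.15 (Ppargc1a) in ExT rats. They were also called lower with RLE, DESeq2, no filter and omission of mitochondrial-genome genes, but not on library totals or nuclear-encoded totals. Sirt1 was called higher on library totals (0.75 in Sed, 0.83 in ExT) and on nuclear-encoded totals (1.22 and 1.28), with 13.2, 15.7 and 18.8 CPM in SM and 23.9, 32.3 and 59.2 CPM in MT of Sed rats. Ppara, Ppard, Esrrg and Ppargc1b were called higher on nuclear-encoded totals in both arms, by 0.23 to 0.88. No direction is therefore given for these 6. Each of the 10 had a smaller log2 difference than the all-gene median under TMM, RLE, library totals, nuclear-encoded totals, DESeq2, no filter and omission of mitochondrial-genome genes. After thinning every library to the smallest total, 4 of the 8 testable ones (Sed) and 3 of 6 (ExT) did. The all-gene median includes genes that muscle does not use, so a place below it is no finding about the regulators. The summed level of the 10 genes was 407, 446 and 539 CPM in MT and 421, 541 and 581 CPM in SM of Sed rats. In ExT rats it was 421, 447 and 503 CPM in MT and 505, 555 and 608 CPM in SM. Prkaa2 alone averaged 41.7 CPM in MT and 259 CPM in SM of Sed rats.

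Most related genes also lay below whole muscle in MT with TMM. Of all genes, 33.1% were called lower and 61.7% higher in Sed rats, and 35.0% and 59.3% in ExT rats. The lists were read with TMM alone, and whether their directions depend on the scaling, as for 6 of the regulators, was not tested. All 22 targets of estrogen-related receptors and Nrf1 were lower in both arms (median -5.84 in Sed), with Slc25a4, the muscle adenine nucleotide carrier, at -8.53 and Atp5f1b, an ATP synthase subunit, at -8.40. PPAR targets were lower for 18 of 21, including Acadm at -6.12, and higher for 2, among them Cpt1a, a carnitine palmitoyltransferase, at 0.87. Of 49 other regulators, 42 were lower and 5 higher in Sed and 40 and 6 in ExT rats, with Mef2c (-5.16), a muscle transcription factor, lowest and Esrrb (1.86) and Polg2 (1.59), an accessory subunit of the mitochondrial DNA polymerase, highest in Sed. Marker genes of fibre types and other cells went in both directions. Their levels are CPM of nuclear-encoded counts, a scale other than TMM. The summed levels in MT against SM of Sed rats were 439 to 2439 against 92336 to 167131 CPM for 5 fast-fibre genes, 227 to 344 against 25 to 77.2 CPM for 4 immune genes and 74.0 to 147 against 0.192 to 28.1 CPM for 3 adipocyte genes. Mean summed levels were also lower in MT for slow-fibre, endothelial (357 against 503 CPM) and fibroblast genes (830 against 4691 CPM). They were higher in MT for cardiac (570 against 54.9 CPM), Schwann cell (125 against 57.7 CPM) and erythroid genes. With TMM, 6 of 7 cardiac genes were called higher and 1 lower in Sed rats. Of 3 Schwann cell genes, 0 were called higher and 1 lower with TMM. The 1 erythroid gene was at -0.23 in Sed and -0.58 in ExT rats on that scaling, against the direction of its CPM. Smooth-muscle genes were at 233 against 248 CPM. The part of counts on unused genes in the MT values of the regulators was not tested.

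Between rats of the same arm and number range, several regulators varied together in whole muscle. Of 45 pairs among the 10 genes over 30 SM libraries, 10 passed a permutation test adjusted over all 100 relations computed, and all 10 were positive. On ranks (Spearman) 7 of these 10 passed, and Ppargc1a with Ppargc1b, Ppargc1b with Esrrg and Nrf1 with Prkaa2 did not. The strongest joined Ppara with Esrrg (Pearson r = 0.69, permutation p = 2e-05, q = 0.001; Spearman rho = 0.56) and with Ppargc1b (r = 0.69, permutation p = 4e-05, q = 0.00133; rho = 0.51). Ppargc1a was related to Ppara with r = 0.63 (permutation p = 1.9e-04, q = 0.00329; rho = 0.56), and with r = 0.68 in rats 2 to 16 and 0.58 in rats 17 to 32. Without the 2 libraries farthest from the median of Esrrg, Ppargc1b and Ppargc1a, in turn, these r with Ppara were 0.49, 0.55 and 0.44. The relation of Esrra with Ppara had r = 0.53, with 0.89 in rats 2 to 16 and 0.17 in rats 17 to 32, a difference that was not tested. In LV, over 14 libraries, 1 of 45 pairs passed, Ppargc1a with Ppard (r = 0.70, permutation p = 0.0059, q = 0.0423; rho = 0.66; 0.55 without the 2 farthest libraries), and it did not pass on ranks (q = 0.0922).

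The slow-fibre sum followed several regulators in SM. Esrrg had r = 0.84 with it (permutation p = 1e-05, the smallest that the 100000 resamples can give, q = 0.001; rho = 0.84), with 0.87 in rats 2 to 16, 0.83 in rats 17 to 32 and 0.85 without the 2 farthest libraries. Ppargc1a and Ppargc1b both had r = 0.63 (permutation p = 2.3e-04, q = 0.00329), with rho = 0.52 and 0.53 and with r = 0.49 and 0.46 without the 2 farthest libraries. Ppara had r = 0.59 (permutation p = 6.3e-04, q = 0.007; rho = 0.56; 0.56 without the 2 farthest), and Prkaa2 was related inversely (r = -0.56, permutation p = 0.00135, q = 0.0135; rho = -0.57; -0.54 without the 2 farthest). Esrra, Ppard, Nrf1, Tfam and Sirt1 did not pass (r from -0.38 to 0.39). The relations of Ppargc1a were r = 0.45 in rats 2 to 16 and 0.77 in rats 17 to 32, and those of Prkaa2 -0.51 and -0.60.

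**Figure D5:**
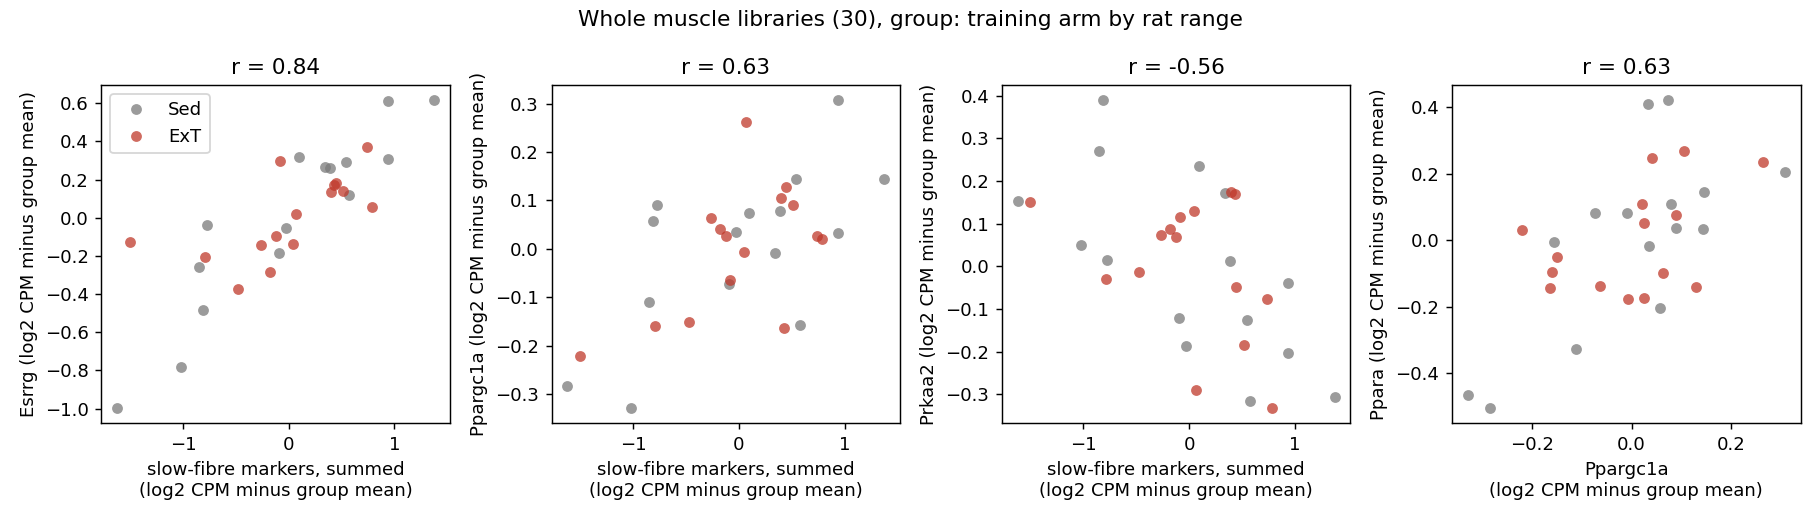
Deviation of each of the 30 SM libraries from the mean of its training arm and rat range, on the log2 CPM scale, for the slow-fibre sum against Esrrg, Ppargc1a and Prkaa2 and for Ppargc1a against Ppara; r is Pearson's. Esrrg rises along the slow-fibre sum (r = 0.84) and Prkaa2 falls (r = -0.56).

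Genes with the pattern most like each regulator were ranked by Pearson's r of the same deviations over the 30 SM libraries, among 8559 genes of at least 5 CPM, as a description. Esrrg was closest to Idh2, mitochondrial isocitrate dehydrogenase (r = 0.94), Mybpc1, slow myosin-binding protein C (0.93), and Lmcd1 (0.93). In the 14 LV libraries the same 3 had r of -0.35, 0.18 and -0.70 with Esrrg. Ppargc1a was closest to Mtfp1, a mitochondrial fission protein (0.82), Cs (0.81) and Got2, mitochondrial aspartate aminotransferase (0.80), and in LV these had r of 0.29, 0.83 and 0.41 with Ppargc1a. Tfam was closest to Eci2, Tmem126a and Timm44 (0.83, 0.83 and 0.82), Ppara to Pnpla2, adipose triglyceride lipase (0.83), and Prkaa2 to Ptp4a2 (0.89). Esrra was closest to Hnrnpl (0.81), and the leading r was lowest for Sirt1, with Rbbp6 (0.66).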

How the data were processed

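RNA-seq was measured in 74 libraries of 6 groups, placed by their titles. The values are whole-number counts per gene that the authors deposited in 3 tables. Per the submitters' processing notes, reads were handled with FastQC 0.74, cutadapt 4.6, STAR 2.7.11a and HTSeq on build mRatBN7.2. The annotation version and strand setting are not given in the sources used here, so overlapping and antisense genes cannot be told apart. Counts were tested with edgeR 4.0.16 (R 4.3.3; TMM, filterByExpr, robust quasi-likelihood F test) on the libraries of each comparison, with Benjamini-Hochberg adjustment over all genes tested and a threshold of 0.05. DESeq2 1.42.0 was an alternative. The script was tested on simulated data. Levels (CPM) are counts scaled to the library's counts outside the 37 mitochondrial-genome genes. Floors of 3 counts and intervals at the 95% level cover counting error or the fit only. Correlations used log2 CPM with TMM, less the mean of each arm and rat range, and two-sided permutation tests with 100000 resamples (numpy 2.4.6, scipy 1.17.1). All 10 regulators are named in every comparison, and from each list up to 2 called genes with the largest rise and fall, of at least 1 CPM; 1 gene that this rule names is not reported here. The PPAR list had 21 of 22 symbols in the tables and the list of estrogen-related receptor and Nrf1 targets 22 of 24. The members and lists were chosen with earlier results of these data known. Promoter windows come from RefSeq on GRCr8, not the build of the counts.

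Libraries of 1 rat in different tissues carry the same number. The correlation of their deviations from group means was 0.00738 at the median for MT with SM (30 rats; 0.000767 for different rats) and 0.0207 for LV with SM (14 rats; 0.0163 for different rats). As the rats are shared by design, fits with the rat as a block were run beside those without it.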

Additional observations from a re-analysis of the deposited data

Results flagged for a closer look

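Of 20 sets of values (the 10 regulators in the Sed and ExT groups of LV), 2 had 1 library standing apart from the rest by more than Dixon's 95% limit for its size, which chance gives in about 1 in 20. Esrra was at 27.3 CPM in the LV library of Sed rat 19, against 20.7 to 23 CPM in the other 6. Nrf1 was at 38.4 CPM in the LV library of ExT rat 14, against 32.8 to 34.9 CPM in the other 6. Neither gene was called for training in LV with these rats or when any single LV library was left out.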

How the results depend on the processing

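The count of regulators called for training was 0 in SM, MT and LV under RLE, library totals, nuclear-encoded totals (an alternative added after seeing the data, as was the test between rat ranges), omission of mitochondrial-genome genes, no filter, DESeq2 and rat range as a covariate. It was 2 in SM among rats 2 to 16, and 0 to 1 in SM when 1 library was left out. Between MT and SM, 5 of 10 were called in each arm on library totals (20427 of 22842 genes in Sed, 18192 of 21312 in ExT), 4 of 8 (Sed; 6206 of 7246 genes) and 3 of 6 (ExT; 4130 of 4967) after thinning all libraries to the smallest total, and 10 (Sed) and 9 (ExT) on nuclear-encoded totals (23270 of 24128 and 22780 of 23652 genes). Signs turned for these log2 fold changes of MT over SM. On library totals they were, in Sed, Esrrg 0.085, Ppara 0.40, Ppard 0.078 and Sirt1 0.75, and in ExT Esrrg 0.056, Ppara 0.26 and Sirt1 0.83. On nuclear-encoded totals they were, in Sed, Ppargc1a 0.20, Ppargc1b 0.23, Esrrg 0.56, Ppara 0.88, Ppard 0.57 and Sirt1 1.22, and in ExT Ppargc1b 0.29, Esrrg 0.58, Ppara 0.75, Ppard 0.32 and Sirt1 1.28. After thinning they were, in Sed, Esrrg 0.30, Ppara 0.33 and Ppard 0.24, and in ExT Ppargc1b 0.25, Esrrg 0.84 and Ppard 0.24. Ppargc1a in LV over SM turned to 0.32 (Sed) and 0.22 (ExT) on nuclear-encoded totals. The thinned fit tests fewer genes, and beyond that the cause was not tested. Of 1163 values that were not called under an alternative, 79 had another sign.

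With the replicate block (the rat), all 10 regulators were called in each arm for MT against SM and for LV against SM, and 0 in both tests of tissue difference in training. The block changed no call. No paired analysis was possible because no rat is in both arms for the training comparisons. MT depth, with medians of 4 to 64.5 counts per library and gene, limits what training differences could be seen there.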
